A study of Drosophila melanogaster with 2 samples.

Results

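Binding of the zinc finger protein Rotund (rn) was examined at 6 genes of leg joint formation: the odd-skipped family genes odd, drm, sob and bowl, and the genes TfAP-2 and dysf. They were taken by name and not by a threshold on any measured value, and make up 6 of the 13945 protein-coding genes on the main chromosome arms. A peak was given to a gene when its summit lay in the gene body or within 20 kb of it. By this rule 20 of the 3777 peaks of the set over both replicates belonged to the 6 genes.

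The material was whole pupae of Drosophila melanogaster from the strain rn-GFP, which carries an insertion that yields Rotund fused to enhanced GFP. Chromatin was precipitated with an antibody against GFP and sequenced (ChIP-seq). There were 2 biological replicates of this 1 group and no second condition, so no test between conditions was possible. The labels list the pupal stage as unknown and the sex as not collected. They do not say which sequences drive the fusion or how many animals were pooled. The control library was not analysed here.

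In the developing leg, Notch signalling at the border of each segment switches on a set of transcription factors, and the cells there fold inward to make a joint. Genes of the odd-skipped family encode zinc finger proteins and are expressed in rings at some of these borders. Drm binds the protein Lines and so frees Bowl, which Lines otherwise holds back. TfAP-2 encodes an AP-2 factor that acts downstream of Notch in joints and in leg growth. dysf encodes a factor of the bHLH-PAS class that pairs with Tango and is needed for the joints of the tarsus, the part of the leg that also needs rn.

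The authors' signal is the value given to a peak within its own list and is not scaled between lists. The irreproducible discovery rate (IDR) estimates the share of peaks, among those ranked at least as high, that do not recur between paired calls, and the deposited threshold lies at an IDR of 0.01. In the set over both replicates the 6 genes fell into distinct patterns. At bowl there were 8 peaks, with a strong one at the gene's start. Around drm, sob and odd there were 9 peaks, none of them inside these genes. At dysf there were 3 peaks and at TfAP-2 there were none. This last contrast depends on the list, since the conservative set, another thresholded list over both replicates, held 2 at dysf and 3 at TfAP-2. A peak in whole animals cannot tell strong binding in few cells from weak binding in many.

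Having a peak in so wide a window was common. The share of all protein-coding genes with one was 69.2%, against 5 of the 6 genes here, so that count by itself does not set them apart. With the body alone, 2 of the 6 had a peak, bowl and dysf, against 9.97% of all genes. Only bowl among the 6 had a summit within 500 bp of one of its own starts, against 12.1% of all genes. The number of peaks varied more. The 8 peaks of bowl were matched or passed by 1.18% of protein-coding genes. The 5 of sob were matched or passed by 7.37%, the 4 of drm by 13.8%, and the 3 of odd and of dysf by 25.4%. These shares are descriptions, since genes differ in length and neighbouring genes share peaks.

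**Figure D1:**
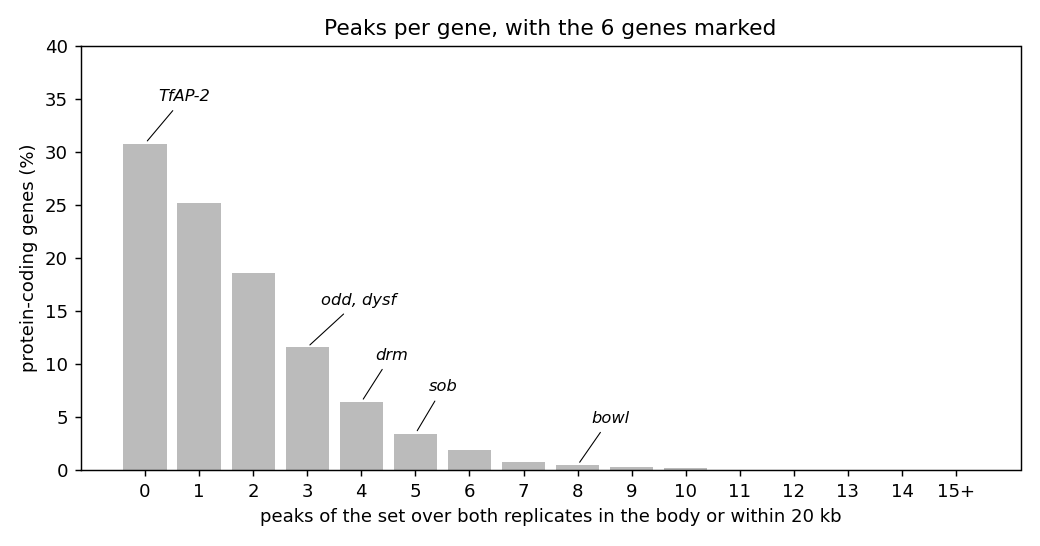
Bars show the percentage of the 13945 protein-coding genes by the number of peaks of the set over both replicates in the body or within 20 kb (counts of 15 or more are drawn together at the right). Labels mark the 6 genes: bowl stands in the thin right tail with 8 peaks, and TfAP-2 in the bar of genes with none.

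The gene bowl (FBgn0004893, 2L:3771700-3784121, plus strand) had the strongest binding of the 6. Its leading peak lay at 2L:3771401-3771544, with the summit 191 bp upstream of the first annotated start and a signal of 286. The replicates' own lists gave it 139 and 147. Both replicates therefore placed it high, at rank 185 of 2377 and rank 151 of 2114, and the set over both replicates placed it at rank 150 of 3777. A share of 8.62% of protein-coding genes had a peak at least as strong in their window.

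Further peaks followed within the gene. An intron held one at 2L:3776679-3776974 with a signal of 103, for which replicate 1 gave 63.6 and replicate 2 gave 41.4. The summit lay 2111 bp before an internal start of bowl. This site was called in both replicates' own sets, and the unscaled value was the higher in replicate 1. The other intronic peaks were weaker: 2L:3776185-3776480 (47.1), 2L:3778179-3778474 (53.8) and 2L:3781479-3781774 (58.5). None of these 3 was called in either replicate's own set, where their signals in the ranked lists were 21.3 to 34.8 for replicate 1 and 19.1 to 28.9 for replicate 2. The first and the second were also absent from the conservative set, the other thresholded list deposited over both replicates.

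The genome sequence at 3 of these summits is shown because they are the strongest sites in bowl and the site nearest to its internal start. Each runs 50 bp to either side of the summit, read from the plus strand of the Release 6 (dm6) assembly of RefSeq. Capitals mark matches to the motifs described further on.
bowl start, chr2L:3771459-3771559: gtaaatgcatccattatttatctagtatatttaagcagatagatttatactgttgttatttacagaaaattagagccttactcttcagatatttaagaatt
bowl intron, chr2L:3776777-3776877: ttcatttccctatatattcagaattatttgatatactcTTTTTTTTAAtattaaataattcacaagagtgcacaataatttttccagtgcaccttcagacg
bowl before the internal start, chr2L:3778277-3778377: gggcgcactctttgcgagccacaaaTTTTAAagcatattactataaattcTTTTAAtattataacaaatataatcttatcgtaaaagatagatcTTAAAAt
The strongest of the sites carried none of the motifs searched, while the weaker intronic site near the internal start carried TTAAAA at 3 positions. G and C made up 24.8%, 26.7% and 25.7% of these windows.

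The remaining peaks of the bowl window lay outside the gene and nearer to other starts. Upstream, the peak at 2L:3769827-3770122 (signal 64.1) had its summit 1725 bp from the start of bowl and 479 bp from that of the noncoding gene lncRNA:CR43704. It was called in replicate 2 alone, with 30.8, and its signal in the ranked list of replicate 1 was 36.0. Beyond the end of bowl lay 2L:3786280-3786575 (80.7), intergenic and near the pseudogene CR31958. The peak at 2L:3789296-3789591 (93.9) lay in an intron of bark, which encodes a protein of cell junctions where 3 cells meet. Both were called in each replicate, with 43.1 and 37.4 for the former and 48.3 and 51.6 for the latter. So 4 of the 8 peaks were called in both replicates' own sets, and 2 of these 4 were at or in bowl itself.

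Each replicate added a site of its own near bowl. In replicate 2 a peak in a bowl intron, 1341 bp downstream of a start of the gene, was called with a signal of 40.8, while the ranked list of replicate 1 had 16.8 there. In the ranked list over both replicates this site stood just below the threshold, at 2L:3773223-3773518 with a signal of 56.3 and an IDR of 0.0147. In replicate 1 a pair of overlapping peaks was called near the start of Reph, 18978 bp beyond the end of bowl by the summit in the conservative set, which also held that site (signal 58.2).

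**Figure D2:**
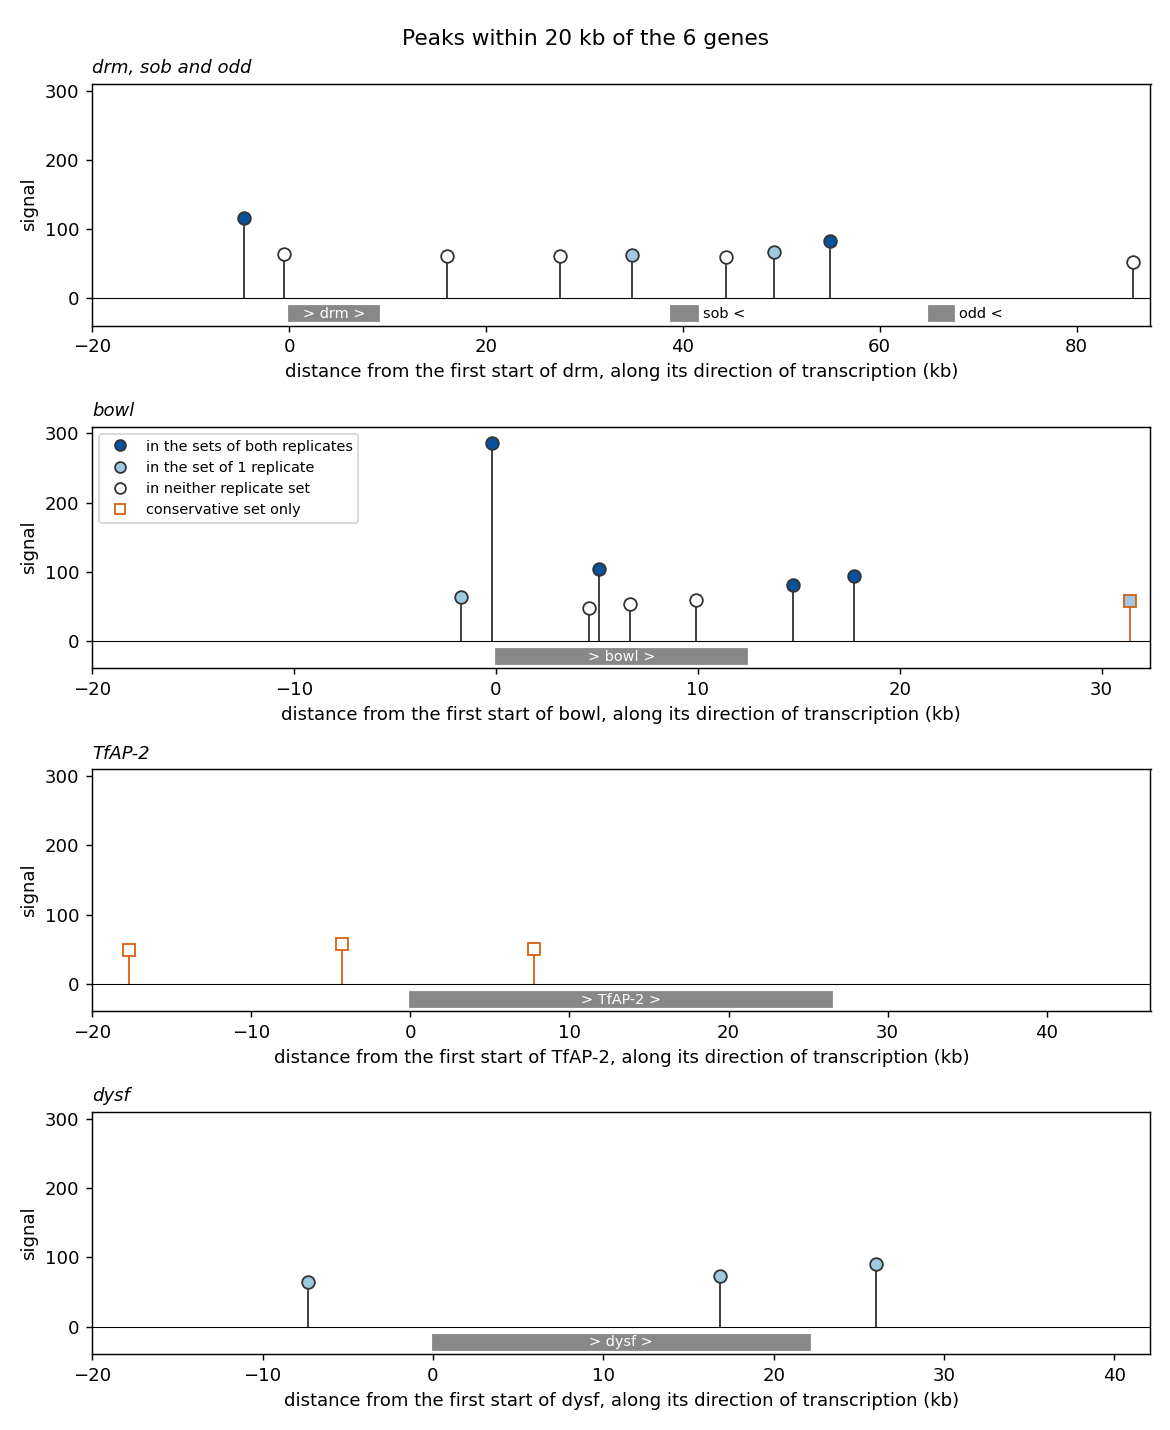
Each panel shows 1 locus with distance from the first start of the named gene in kb on the horizontal axis and the signal of each peak on the vertical axis. Grey bars are gene bodies with the direction of transcription. The fill shows in how many replicates' own sets the peak was called, and orange squares are peaks of the conservative set alone. The peak of 286 at the start of bowl stands above all others, the peaks around drm, sob and odd lie outside the grey bars, and TfAP-2 has squares only.

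The genes drm, sob and odd lie side by side on 2L, 165 kb from bowl between the starts of odd and bowl. With their flanks they span 108 kb (2L:3519247-3626756), which held 9 peaks. That is 8.37 per 100 kb, against 2.82 per 100 kb over the 6 arms. Of the 9, 3 fell in the windows of 2 neighbouring genes, so the counts of 4 for drm, 5 for sob and 3 for odd overlap. All 9 lay outside the 3 gene bodies, and no summit was within 500 bp of an annotated start of any gene. Intergenic sequence held 7 of the 9, or 77.8%, against 15.2% of all peaks. Their median signal was 62.7, below the median of 79.7 over all peaks, and 2 of the 9 exceeded it.

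The gene drm (FBgn0024244, 2L:3539247-3548423, plus strand) encodes a short zinc finger protein that binds Lines. Its strongest peak, at 2L:3534511-3534806, lay 4588 bp upstream of the start with a signal of 116, rank 991 of 3777. The replicates gave unscaled signals of 59.4 and 59.2. It was called in each, at rank 1101 of 2377 in replicate 1 and rank 911 of 2114 in replicate 2. Nearer to the gene, 531 bp upstream, a weaker peak at 2L:3538568-3538863 had a signal of 63.1. Its values in the ranked lists were 47.7 in replicate 1 and 20.4 in replicate 2, in lists that are not scaled to each other. It was called in neither replicate's own set nor in the conservative set, and its IDR was 0.00229 in the ranked list over both replicates and 0.0107, just past the threshold, in a second deposited ranked list. A peak at 2L:3555147-3555442 (60.6) lay 6872 bp beyond the end of drm, with 37.3 and 25.5 in the replicates, and was called in neither own set.

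The gene sob (FBgn0004892, 2L:3578013-3580769, minus strand) had 5 peaks, of which 3 lay upstream and 2 beyond its end. The nearest, 2L:3583458-3583753, was 2837 bp upstream, where the signal was 58.8 over both and 26.1 and 27.2 by replicate. It was the only one of the 5 with the start of sob as the nearest annotated start, and neither replicate alone called it. Beyond the end of the gene, 2L:3573980-3574275 (62.7) was called in replicate 2 with 35.7 but not in replicate 1, whose ranked list had 26.6. The peak at 2L:3566608-3566903 (61.3) lay between drm and sob and in the windows of both, with 35.9 and 27.2.

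Between sob and odd lay 2 peaks that count for both genes. The stronger, 2L:3594056-3594351, had a signal of 82.3 and was called in each replicate, with 42.1 and 38.2. It is intergenic, 13435 bp upstream of the start of sob and 10020 bp beyond the end of odd, and was the strongest peak for either. The other, 2L:3588387-3588682 (66.8), lay in an exon of the noncoding gene lncRNA:CR43823. Replicate 2 called it with 35.6, and replicate 1 had 30.2 in its ranked list. The gene odd (FBgn0002985, 2L:3604224-3606756, minus strand), the founding member of the family, had 1 further peak, at 2L:3624782-3625077 (51.6). It lay 18174 bp upstream in an intron of for, which encodes a cyclic GMP-dependent protein kinase, and had 24.9 and 26.5 in the replicates.

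The sequences of the peaks called in both replicates, and of the one closest to a start, are shown for these 3 genes. They again run 50 bp to either side of each summit on the plus strand of dm6.
drm upstream, chr2L:3534609-3534709: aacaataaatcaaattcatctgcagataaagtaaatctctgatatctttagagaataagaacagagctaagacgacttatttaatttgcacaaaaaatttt
drm near the start, chr2L:3538666-3538766: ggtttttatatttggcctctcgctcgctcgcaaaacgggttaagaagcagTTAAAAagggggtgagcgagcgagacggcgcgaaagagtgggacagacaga
between sob and odd, chr2L:3594154-3594254: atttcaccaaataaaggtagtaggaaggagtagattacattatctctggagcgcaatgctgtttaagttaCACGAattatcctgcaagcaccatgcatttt
The site nearest to drm was the richest in G and C of the 3, with 52.5% against 25.7% upstream and 37.6% between sob and odd. It held TTAAAA directly at the summit. The site between sob and odd held TCGTG, written here on the other strand.

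Inside drm, sob and odd and at their starts, the ranked list over both replicates, which holds peaks of any IDR, had weak peaks only. The strongest in the body had a signal of 35.0 in drm (IDR 0.132), 31.8 in sob (IDR 0.213) and 27.9 in odd (IDR 0.679). At the starts the strongest values were 19.7 for drm, 21.8 for sob and 27.9 for odd, the last being the same peak as in the body. The start peaks of drm and odd had no counterpart in the ranked list of replicate 1, and that of sob had none in replicate 2. By the same measure bowl had 286 at its start.

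The gene dysf (FBgn0039411, 3R:26076592-26098711, minus strand) had 3 peaks, each called in 1 replicate only. The strongest, 3R:26072554-26072849, lay 3890 bp beyond the end of the gene with a signal of 90.7. Replicate 2 called it with 57.7, while the ranked list of replicate 1 had 31.7. A peak in an intron, 3R:26081690-26081985, had a signal of 73.7 and lay 16214 bp into the gene from the nearer of its starts. Here replicate 1 was the higher, with 45.6 and a call, against 29.8 in replicate 2. The peak upstream, 3R:26105922-26106217 (64.1), lay 7359 bp before dysf but 798 bp from the start of Cipc, and had 47.2 in replicate 1 and 19.99 in replicate 2. It was absent from the conservative set.

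Closer to its start, dysf had a peak just below the threshold. At 3R:26098914-26099209, 351 bp upstream, the ranked list over both replicates gave a signal of 41.6 and an IDR of 0.0129. Replicate 1 called this site with 32.3, and the ranked list of replicate 2 had 12.5. The unscaled signal was higher in replicate 1 at 3 of these 4 sites near dysf and in replicate 2 at the strongest. Over all peaks met in both ranked lists it was higher in replicate 1 at 2295 of 3702. The intronic site and the strongest site are shown as the only called site inside dysf and the highest one near it (dm6, plus strand).
dysf intron, chr3R:26081788-26081888: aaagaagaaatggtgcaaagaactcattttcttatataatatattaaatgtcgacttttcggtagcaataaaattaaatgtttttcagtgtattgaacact
beyond the end of dysf, chr3R:26072652-26072752: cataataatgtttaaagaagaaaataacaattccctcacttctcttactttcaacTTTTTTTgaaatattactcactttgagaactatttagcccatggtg
The stronger of them held a run of 7 T, which is a run of A on the other strand, and the intronic one held none of the motifs searched.

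At TfAP-2 (FBgn0261953, 3L:21586828-21613349, plus strand) the set over both replicates had no peak, nor had either replicate's own set. The conservative set held 3. They were 3L:21568990-21569285 (48.1), 38 bp from the start of the neighbour SMC5, 3L:21582398-21582693 (57.5), 4282 bp upstream of TfAP-2, and 3L:21594423-21594718 (49.5) inside the gene, 26 bp from the start of the noncoding gene lncRNA:CR43940. Their IDR was 0.00615 to 0.00883 in the second deposited ranked list and 0.0117 to 0.0376 in the ranked list over both replicates used elsewhere here. Signals in both replicates were low, with 27.8 and 23.9, 32.9 and 22.7, and 23.6 and 29.3 in that order.
TfAP-2 upstream, chr3L:21582496-21582596: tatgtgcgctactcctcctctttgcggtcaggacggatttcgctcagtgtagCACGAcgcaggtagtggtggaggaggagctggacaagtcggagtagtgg
This site (dm6, plus strand) is shown as the highest one near TfAP-2 and the only one with TfAP-2 as the nearest start. With 57.4% G and C it was unlike most of the other summits, and it held TCGTG on the other strand.

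**Figure D3:**
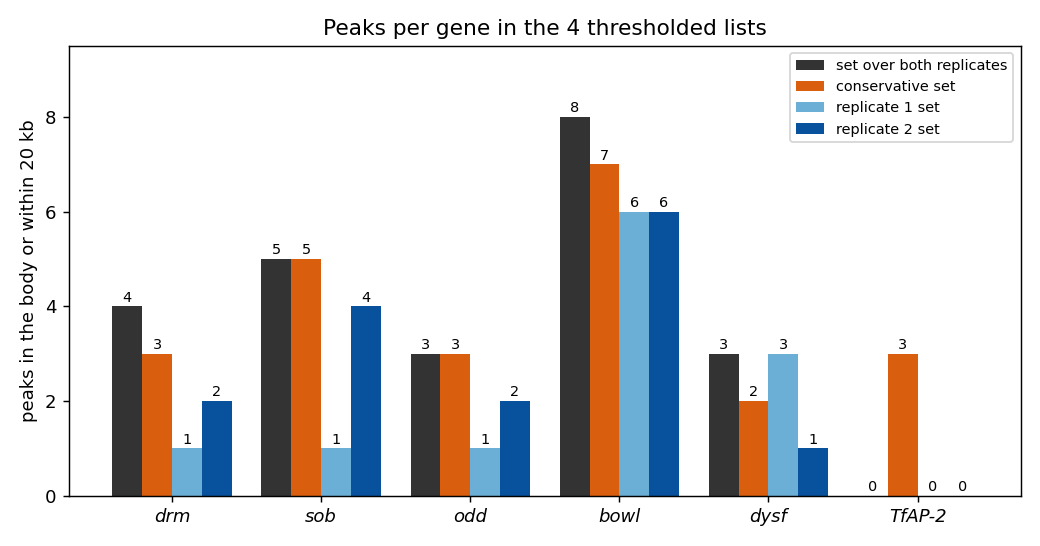
Bars give the number of peaks in the body or within 20 kb of each gene in the 4 thresholded lists, with the number printed above each bar. bowl has 6 to 8 in every list, drm, sob and odd have 1 each in replicate 1, and TfAP-2 has peaks in the conservative set alone.

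In each of the 4 thresholded lists bowl had the most peaks of the 6 genes. It had 8 in the set over both replicates, 7 in the conservative set and 6 in each replicate. The count of replicate 1 includes both peaks of the overlapping pair near Reph, with signals of 30.3 and 4.37, the latter at rank 2371 of 2377. These are not all the same sites, since the conservative and replicate sets include the Reph and intronic sites named above. The counts at drm were 4, 3, 1 and 2 in that order, those at sob 5, 5, 1 and 4, those at odd 3, 3, 1 and 2, and those at dysf 3, 2, 3 and 1. Replicate 1 thus had fewer peaks around drm, sob and odd than replicate 2, although its set was the larger, and had more at dysf. The counts of replicate 2 at drm and at sob include 2L:3558394-3558673 (21.8), which is not in the set over both replicates. The ranked list of replicate 1 had no counterpart there. The share of all protein-coding genes with a peak was 68.2% in the conservative set, 57.1% in replicate 1 and 54.4% in replicate 2, and in each of the replicates 5 of the 6 genes had one. The set over both replicates and the conservative set shared 16 of the 20 peaks each held in these windows.

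Of the 20 peaks, 6 were called in both replicates' own sets, against 41.5% of all peaks. Another 6 were called in only 1 of these sets, against 31.2%, and 8 in neither, against 27.2%. All 20 met a peak of any IDR in both ranked lists, as did 3702 of all 3774 peaks, so this does not set them apart. Their summits lay 0 to 80 bp from those of the replicates, with a median of 12 bp. The ratio of replicate 1 to replicate 2 ranged from 0.549 to 2.36 with a median of 1.13, against a median of 1.10 over all peaks met in both lists. Over the 20 peaks, signals in the replicates had a Pearson correlation of 0.880 and a Spearman correlation of 0.377. Over all peaks met in both lists these were 0.920 and 0.673. The 20 include the bowl start peak, far above the rest, and all points share the same libraries, so the values are descriptions. The median signal was 64.1, with 7 of 20 above the median of all peaks.

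**Figure D4:**
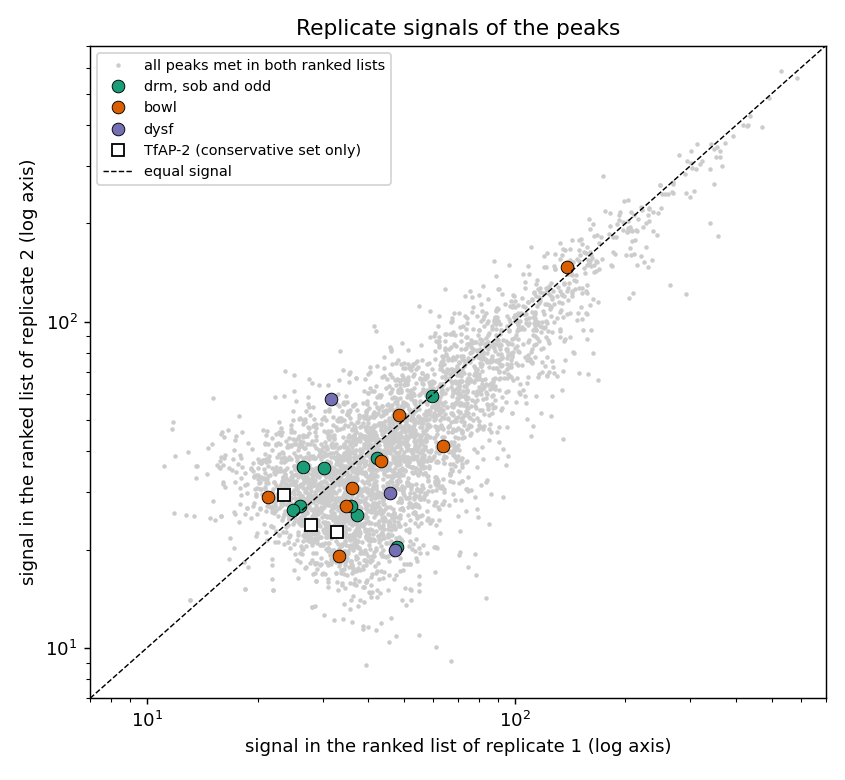
Each point is a peak, with its signal in the ranked list of replicate 1 on the horizontal and of replicate 2 on the vertical log axis. Grey points are all peaks of the set over both replicates met in both lists, coloured points the 20 peaks, and squares the 3 conservative peaks at TfAP-2. The bowl start peak lies close to the line of equal signal at 139 and 147, apart from the other coloured points, which reach 63.6 in replicate 1 and 59.2 in replicate 2.

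The position of the peaks also differed from that of the set as a whole. Promoters held 2 of the 20 (against 38.5% of all peaks), introns 7 (against 42.8%) and intergenic sequence 10 (against 15.2%). The remaining one lay in a noncoding exon. The windows of drm, sob and odd supplied 7 of the 10 intergenic peaks. In the window of bowl 12.5% of the 8 peaks were intergenic and 25% lay at promoters. The promoter count also hangs on the cut of 500 bp, since it was 7 of 20 within 1000 bp, where the share over all peaks was not computed. The nearest annotated start was that of one of the 6 genes for 7 peaks, of a noncoding gene or pseudogene for 10 and of another protein-coding gene for 3. How far the choice of windows bears on these shares was not tested.

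Within 25 bp of the summit the content of G and C was 30.4% ± 12.9 (SD over the 20 peaks), against 34.3% ± 12.1 over 3774 summits. The range was 11.8% to 52.9%, so the sites were not alike in base composition. Motifs were searched on both strands up to 50 bp from each summit, and matches may overlap. TTAAAA was found at 7 of 20 summits (against 30.4% of all summits and 13.6% of 19607 windows of equal length centred on protein-coding starts). A run of A (AAAAAAA), the kind of sequence that the mammalian relative ZNF384 is known to bind, was at 2 of 20, against 17.7% and 7.90%. TCGTG, the core read by Dysfusion with Tango, was at 2 of 20, against 7.87% and 13.6%. The homeodomain core TAATTA was at 1 of 20, against 8.90% and 2.97%.

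No summit of the 20 held the odd-skipped family motif ACNGTAGC (0.583% of all summits), the AP-2 motif GCCNNNGGC (1.19%), the Su(H)-like TGGGAA (4.74%) or TATCGATA (0.768%). The bases TTTTTTTTAA in the bowl intron hold a run of A and TTAAAA that overlap. A match is a string of letters and not a shown site, and the absence of one holds for these windows only.

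Other genes known from leg joints were read by the same rule. Of 16 on the list 15 were analysed here, and 13 of them had a peak in the body or within 20 kb, against 69.2% of all protein-coding genes. A peak inside the body was found for 8 of the 15, against 9.97%, where gene length was not matched. The protein that is targeted, Rotund, had 7 peaks in the window of its own gene, the highest at 106 (57.4 in replicate 1 and 53.4 in replicate 2). Signal from the insertion and from the native gene cannot be told apart in these files.

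Among the Notch pathway genes, 6 of 7 had a peak. The strongest was in the window of bib, a channel protein gene that aids Notch signalling, with a signal of 430 (232 and 203), but this peak lay 132 bp from the start of Trp1. E(spl)mbeta-HLH, a repressor gene switched on by Notch, had 8 peaks in its window, the strongest 176 (99.1 and 80.5) and 3065 bp upstream, but nearer, at 1805 bp, to the start of E(spl)malpha-BFM. The receptor gene N had 156 (84.1 and 80.0) and fng, whose product modifies the receptor, had 150 (85.4 and 75.04) at 736 bp upstream, with the start of lncRNA:CR45243 nearer at 535 bp. The POU factor gene nub had none in the set over both replicates and 1 in that of replicate 2.

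Both partner genes had peaks nearby but none inside. In the window of tgo, which encodes the partner of Dysfusion, the strongest signal was 370 (200.7 and 160.6), in an intron of the neighbour neur. In that of lin, which encodes Lines, it was 83.0 (54.7 and 29.3) and lay 72 bp from the start of CG30349. Of the 6 genes for cell shape and cell death, 5 had a peak. The cell death gene hid had 5 peaks, with 199 (89.8 and 109) at 304 bp upstream of its start. The phosphatase gene puc had 4 peaks, all in its body, up to 98.6. The cell death gene rpr had none.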

How the data were processed

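Peak tables in narrowPeak form covered 2 biological replicates of 1 group, and their assembly is dm6 per the labels. Column 7 of the deposited files is the signal of a peak as the authors' caller gave it, not scaled between lists. The score in the deposited files is the IDR rescaled by the authors to at most 1000, and the lowest score in each thresholded list is 830. The deposited ranked lists also give the −log10 of the IDR. The aligner, like the peak caller, is not given in the sources used here. No read counts are in the tables, so depth is unknown and no interval from depth is given.

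Gene models were those of Ensembl release 115 (BDGP 6.54), and each of the 6 genes had the same start and end in RefSeq. Sequence was that of the RefSeq Release 6 assembly. No peak ended beyond its arm. Peaks on the 6 main arms were used (3774 of 3777). Coordinates are 1-based, and a summit is the deposited start plus its offset. The window was 20 kb, a promoter 500 bp around a start, and replicate peaks were matched by at least 1 bp, taking the strongest match. Classes were assigned in the order promoter, coding exon, other exon, intron, intergenic. Summits of 19 of the 20 peaks lie at the middle of a fixed width of 296 bp, so the width does not show how precise a summit is.

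The genes, lists, motifs and alternatives were chosen with earlier results of these data known, and the nearest protein-coding start was added after the values were seen. Genes named were the 6, the owner of the nearest start, rn, and up to 4 of each group of other joint genes by strongest peak, with nub and rpr named after their values were seen. Some genes of the last group that this rule names are not reported here. No test was run, since there is 1 group. A planned comparison of the proteins was not run. Counting and motif matching were tested on simulated data. Python 3.11.15, numpy 2.4.6, pandas 2.3.3 and matplotlib 3.10.9 were used.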

Additional observations from a re-analysis of the deposited data

How the results depend on the processing

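The number of the 6 genes with a peak was 5, and it was 6 in the conservative set, 5 at an IDR of 0.001, 4 with 5 kb around the body, 2 with the body alone and 3 when the nearest start of any gene had to be the gene's own. With the nearest protein-coding start, chosen after the data were seen, it was 5. In each replicate's own set it was 5. The number of peaks, 20, was 20 in the conservative set, 13 with 5 kb, 5 with the body alone, 7 with the nearest start, 12 with the nearest protein-coding start and 9 at an IDR of 0.001. It was 11 in the own set of replicate 1, counting both of the overlapping pair near Reph, and 12 in that of replicate 2. These are separate and shorter lists, of 2377 and 2114 peaks, and no set was called anew with a replicate left out. Of the background, 69.2% of genes, the share was 37.1% with 5 kb, 9.97% with the body alone and 68.2% in the conservative set. It was 57.1% in the own set of replicate 1 and 54.4% in that of replicate 2. For an IDR of 0.001 and for both nearest-start rules the share of all protein-coding genes was not computed. The counts of genes under those settings therefore have nothing to be set against. Peaks met in both replicates were 6 with a reciprocal overlap of 50% as well, and 20 against the ranked lists. Of all 3774 peaks, 3702 were met in both ranked lists. Promoter summits, 2, were 1 within 250 bp and 7 within 1000 bp. Summits with any of the 8 motifs, 11, were 8 within 25 bp and 17 within 100 bp of the summit. For promoters of 250 bp and 1000 bp, and for any of the 8 motifs, the share over all peaks was not computed. These counts therefore describe the 20 peaks only. The wider windows hold more bases or starts by construction. No paired analysis was possible because there was 1 group. The leading signals at bowl (286), drm (116) and dysf (90.7) were the same with 5 kb and at an IDR of 0.001. At odd no peak was left with 5 kb. The leading signal at bowl was 103 with the body alone. At drm it was 63.1 with either nearest-start rule. At sob (82.3) it was 62.7 with 5 kb, 58.8 with the nearest start and 66.8 with the nearest protein-coding start.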

Other observations

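Peaks just under the deposited threshold were counted as well, with an IDR between 0.01 and 0.05 in the ranked list over both replicates. Over the arms they made up 1.57% of 126185 ranked peaks. In the window of TfAP-2 they were 4 of 52, the 3 peaks of the conservative set and a further one inside the gene at 3L:21604342-21604637 with a signal of 47.5 and an IDR of 0.0141. At bowl they were 4 of 53, at sob 4 of 59 and at drm 4 of 63, with 3 peaks shared by drm and sob. At dysf they were 2 of 68 and at odd 1 of 51, at 2L:3600896-3601191 with a signal of 46.5. Some of these ranked peaks overlap one another, so they need not be separate sites. In this ranked list no peak at or above the threshold score was missing from the thresholded set in any of the 6 windows. The list holds every peak of that set with equal values, so this outcome was close to fixed. The second deposited ranked list did have such peaks, the 3 at TfAP-2 and the Reph site with a score of 996.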
